A study of Equus caballus with 32 samples.

Results

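Whole blood of 32 Welsh Pony mares was compared at its extremes of neutrophil transcript level. Each array, which carries the RNA of 1 mare, received a score, the mean of the z values of 5 neutrophil genes (NCF1, ALPL, PADI4, S100A8 and LTF), a z value being the distance from the gene's mean over all arrays in SDs. The 8 arrays with the highest scores are called neutrophil-rich and the 8 with the lowest neutrophil-poor, so that 16 of 32 arrays entered the comparison, whatever the weaning type of the mare. The names stand for the score alone, since no blood cell counts were used here. The blood had been drawn 30 days after the foals were weaned, from 16 mares of the brutal and 16 of the progressive weaning. The labels give no mare without a weaning, no age and no further detail of either schedule. RNA was hybridised to 1-colour horse arrays, with 8 arrays on each of 4 slides.

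Neutrophils are short-lived phagocytes of the blood that leave the bone marrow with their granules already filled. They are drawn to sites of infection by chemoattractant receptors, bind vessel walls through selectin ligands and integrins, and kill microbes with granule proteins and with oxidants made by the phagocyte NADPH oxidase. Their energy comes mainly from glycolysis, and mature cells do not divide. In whole blood, RNA of all leukocytes, platelets and young red cells is measured together, so that fewer cells of a type and less RNA per cell cannot be told apart.

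The probes of 3 of the 5 scoring genes are given with their sequences, because the whole comparison rests on these genes. NCF1 is a cytosolic subunit of the NADPH oxidase, ALPL the alkaline phosphatase of neutrophil secretory vesicles, PADI4 the enzyme that citrullinates histones when extracellular traps form, S100A8 a calcium-binding calgranulin of the neutrophil cytosol, and LTF the iron-binding lactoferrin of the secondary granules. The probes are written 5′ to 3′ as the scanner files give them.
NCF1 (custom probe, 50 bases): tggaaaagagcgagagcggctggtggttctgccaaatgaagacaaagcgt
ALPL (60 bases): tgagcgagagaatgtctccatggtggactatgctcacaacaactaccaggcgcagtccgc
S100A8 (60 bases): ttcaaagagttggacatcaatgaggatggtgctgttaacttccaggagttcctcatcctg
The file headers name the build EquCab1, and on it the ALPL probe spans chr2:31365330-31366104 on the minus strand. This span, 775 bases, is longer than the probe. The S100A8 probe lies at chrUn:82337680-82337739 on the minus strand and the LTF probe at chr16:40349555-40349614 on the plus strand. No position is given for the custom NCF1 probe.

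The rich arrays had scores of 1.25 (brutal 6), 1.11 (progressive 3), 0.99 (brutal 5), 0.99 (brutal 10), 0.92 (brutal 14), 0.84 (progressive 16), 0.54 (brutal 8) and 0.53 (progressive 13). The poor arrays had scores of −0.53 (progressive 14), −0.70 (brutal 9), −0.95 (progressive 9), −0.98 (progressive 2), −1.15 (brutal 4), −1.35 (progressive 15), −1.57 (progressive 11) and −1.71 (progressive 1). The limits fell within a continuous range: the array just outside the rich set, progressive 6, scored 0.50, and the array just outside the poor set, progressive 12, scored −0.48. The poor side reached further from 0 than the rich side.

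**Figure D1:**
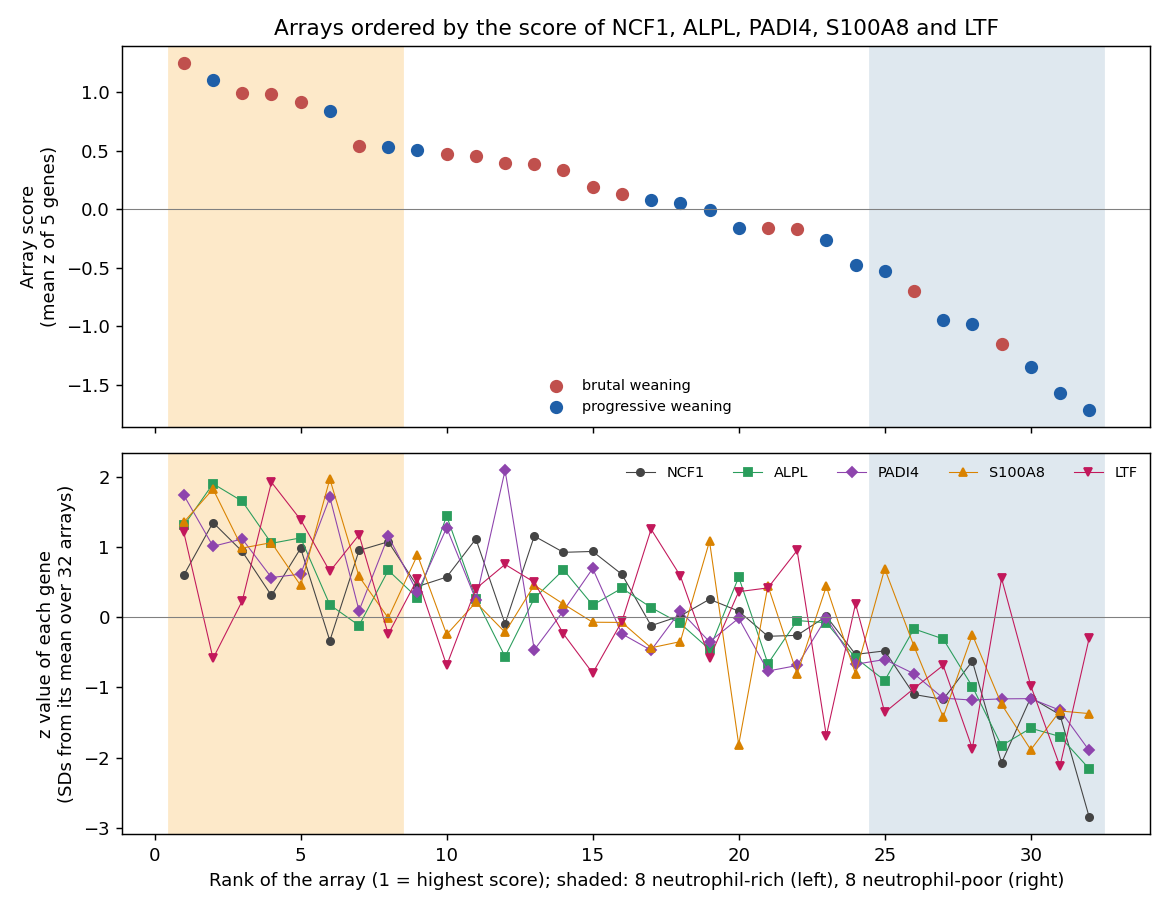
Score of each of the 32 arrays in rank order (upper panel, brutal weaning in red and progressive in blue) and the z value of each scoring gene on the same arrays (lower panel), with the 8 rich and 8 poor arrays shaded. The scores run from 1.25 to −1.71 without a gap at either limit, and LTF departs most from the order of the other genes.

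Levels are given as log2 of the signal relative to the 75th percentile of the same array, a scale on which probes of different genes cannot be set against each other. PADI4 had a lowest, median and highest level of −0.77, −0.07 and 0.42 in the rich arrays and of −2.21, −1.68 and −1.27 in the poor arrays. ALPL ran from −0.54 to 0.64 (median 0.17) in the rich arrays and from −1.73 to −0.57 (median −1.22) in the poor arrays. NCF1 ran from −0.19 to 0.57 (median 0.38) and from −1.32 to −0.26 (median −0.56). The arrays of both sides were apart for these 3 genes. S100A8 (4.15 to 5.96 against 2.43 to 4.79) and LTF (0.42 to 3.16 against −1.25 to 1.67) overlapped. The differences of the means, rich minus poor, were 0.94 for NCF1, 1.27 for ALPL, 1.56 for PADI4, 1.77 for S100A8 and 1.84 for LTF on the log2 scale, and they follow from the choice of arrays.

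The 75th percentile signal was 355 to 623 units in the rich and 382 to 605 units in the poor arrays, and 53.0% to 62.6% and 54.7% to 62.8% of spots were well above background, so that the ranges overlapped on both measures. Slides 1 to 4 held 1, 3, 1 and 3 rich arrays and 3, 0, 3 and 2 poor arrays. Progressive 16, a rich array, had 851 spots marked as outliers by the scanner software, against at most 180 on any poor and 143 on any middle array.

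Among the rich mares 5 were weaned brutally and 3 progressively, and among the poor mares 2 and 6. The 16 brutal arrays had a mean score of 0.31 ± 0.63 (SD). The 16 progressive arrays had a mean of −0.31 ± 0.84 (SD), and both types had mares in the rich and in the poor set. The difference of the means, progressive minus brutal, was −0.61. Without progressive 16 it was −0.69. NCF1, ALPL, PADI4 and LTF had been noticed in these data for their difference between the weaning types, so this difference is given without a test.

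Of the other 9216 genes measured, 189 were higher in every rich array than in any poor array (2.05%) and 57 were lower in every rich array (0.618%), together 246 (2.67%). As the arrays were chosen on neutrophil transcripts of the same RNA, these counts describe the 16 arrays and carry no test. The median difference over all genes was −0.02 and 46.9% of genes had a positive difference. The 189 genes were 1.16 to 4.24 times higher (median 1.65), 33 of them at least 2-fold. The highest value, 4.24, was that of CORO2A, whose probe was dim. The 57 genes had rich-to-poor ratios of 0.556 to 0.848 (median 0.734), with 0 of them lower by 2-fold. Scaling the arrays by quantiles gave 139 higher and 72 lower genes, and scaling them on the probes detected everywhere gave 144 and 87, which took the higher share from 76.8% to 65.9% and 62.3%. It was 65.4% after another background correction (normexp) followed by quantile scaling, and 69.6% in the authors' deposited table. With each gene centred on its slide the counts were 101 and 20.

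The genes with the largest differences in favour of the rich arrays held several that are known from phagocytes. FCAR, the receptor for the constant part of immunoglobulin A, had a lowest, median and highest level of 3.88, 4.15 and 4.59 in the rich arrays and 2.47, 2.90 and 3.50 in the poor arrays, a 2.34-fold difference of means (4.18 ± 0.29 against 2.95 ± 0.37, SD, n = 8 each). PPP1R3B, which targets a phosphatase to glycogen, ran from 3.04 to 4.13 (median 3.47) against 1.48 to 2.90 (median 1.98), 2.71-fold. CDA, cytidine deaminase, ran from 1.18 to 2.20 (median 1.29) against −0.79 to 0.94 (median 0.11), 2.53-fold. In all 3 the lowest rich array lay above the highest poor array. The differences of DGAT2, which makes triglycerides, of TRIB1, a pseudokinase that limits C/EBP proteins, and of APMAP were 1.21, 1.15 and 1.20. GFI1B, a repressor known from red cell and platelet precursors, differed by 1.35, TNFSF4, the ligand of OX40, by 1.22, and C5H1orf162 by 1.18.

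Dim probes gave differences of 2.08 for CORO2A, 1.73 for CDCP1 and 1.26 for RAB3D. CORO2A was well above background on 8 rich and 2 poor arrays, CDCP1 on 7 and 2, and RAB3D on 6 and 4. With normexp background correction, an offset of 50 added to the signal and quantile scaling, they were 0.59, 0.32 and 0.26.

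Chemoattractant and cytokine receptors were higher in the rich arrays as a group. Of 15 genes, 14 had a positive difference, against 46.9% of all genes, and 4 were higher without overlap, against 2.05%. The median was 0.90 against −0.02 over all genes. Since the arrays were chosen on neutrophil genes, nothing further is read from these shares, here or in the lists that follow. CXCR2, the receptor through which neutrophils sense interleukin 8, ran from 3.76 to 4.43 (median 4.04) in the rich and from 2.90 to 3.67 (median 3.26) in the poor arrays, 1.72-fold. The other 3 genes without overlap were IL18RAP (0.90), TNFRSF1A (0.80) and IL17RA (0.80), chains of the interleukin 18, tumour necrosis factor and interleukin 17 receptors. CSF3R, the receptor of the granulocyte growth factor G-CSF, was 3.34 ± 0.32 against 2.43 ± 0.37 (SD, n = 8 each), with the lowest rich array (2.87) below the highest poor array (2.94). LTB4R (1.37), which binds leukotriene B4, IL1R2 (1.36), a decoy receptor of interleukin 1, and FPR2 (1.27), a formyl peptide receptor, had larger mean differences but overlapped. PTAFR, the receptor of platelet-activating factor, differed by −0.07.

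Granule genes are given by class, beside 46.9% of all genes with positive differences and 2.05% higher without overlap. The 5 genes of tertiary granules and secretory vesicles were all higher on average (median 1.21), led by MMP9 (gelatinase B, 1.36), FCAR (1.23) and TNFAIP6 (1.21), and only FCAR was free of overlap. For secondary granule genes the median was 0.54, with 7 of 9 positive and 0 free of overlap. MMP8, neutrophil collagenase, ran from 2.47 to 5.12 (median 3.57) in the rich and from 0.65 to 3.25 (median 2.28) in the poor arrays. TCN1, which binds vitamin B12, was 1.99 and LYZ, lysozyme, 1.67 times higher on average, and CRISP3 differed by −0.03 and ECATH-3, a cathelicidin, by −0.12. Of 10 listed primary granule genes 4 were compared. The probes of PRTN3, CTSG and MS4A3 were too dim, and ELANE, AZU1 and PRSS57 were not analysed here. SERPINB1, a cytosolic inhibitor of neutrophil serine proteases counted with this list, was its only gene free of overlap (0.76). MPO, myeloperoxidase, ran from −6.45 to −2.92 against −6.59 to −3.98. CTSC, the protease that activates granule enzymes, differed by 0.01. The granule classes thus spanned differences from −0.12 to 1.40, and the differences between the classes were not tested.

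The oxidase and calgranulin genes had positive differences with overlap. All 5 oxidase genes (median 0.40) were positive, against 46.9% of all genes, and 4 of them are described here. NCF4, a cytosolic subunit, was 1.69 ± 0.29 against 1.01 ± 0.28 (SD, n = 8 each), a difference of 0.68, and the membrane subunit CYBB differed by 0.40, CYBA by 0.22 and the GTPase RAC2 by 0.20. S100A9, which pairs with S100A8 in calprotectin, ran from 5.48 to 7.08 (median 6.48) in the rich and from 3.99 to 6.02 (median 4.55) in the poor arrays, with means of 6.33 ± 0.53 and 4.74 ± 0.78 (SD, n = 8 each). S100A12 differed by 0.60, with 5.90 to 7.82 against 5.35 to 7.43. Of the calgranulins, S100A12 thus had the more overlapping ranges.

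Regulators and kinases of myeloid cells were among the most regular. All 8 genes (median 0.88) had positive differences, against 46.9% of all genes. Of these 8 genes 4 did not overlap, against 2.05% of all genes that were higher without overlap. SPI1, the transcription factor PU.1 of myeloid cells, ran from −0.25 to 0.45 (median 0.18) in the rich and from −1.20 to −0.48 (median −0.88) in the poor arrays, 1.96-fold. The Src family kinases FGR (0.98) and LYN (0.71), which act below integrins and Fc receptors, did not overlap either. CEBPE, needed for secondary granules to form, differed by 0.94 with overlap, and SYK, a kinase of immune receptors, by 0.23.

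Sugar metabolism and adhesion genes lay on the same side. Of all genes 46.9% had positive differences and 2.05% were higher without overlap. All 10 genes of glycolysis and glycogen use were higher on average (median 0.73), and HK2 (2.01-fold) and HK3 (1.95-fold), which are hexokinases, the glucose transporter SLC2A3 (difference 0.85) and the glycogen phosphorylase PYGL (0.72) did not overlap. PGD, of the pentose phosphate pathway, had the largest difference (1.13) but the rich array brutal 8, at 4.36, lay just below the highest poor array, at 4.39. Of 9 adhesion genes all were positive (median 0.58). SELPLG, the ligand of P-selectin, ran from −0.02 to 0.55 against −1.14 to −0.30, and ICAM3 (0.58) was also free of overlap. The integrin chains ITGAX and ITGAM differed by 0.98 and 0.92 and ITGAL, which lymphocytes share, by 0.18. Survival genes were mixed, with 5 of 8 positive and a median of 0.21, from BIRC3, an inhibitor of apoptosis (−0.39), to CFLAR, a brake on caspase 8 (0.55), and MCL1, a BCL2 family protein (0.50).

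Interleukin 1 and NF-kB genes were divided. Of 19 genes 13 had a positive difference (46.9% of all genes) and 4 did not overlap (2.05% of all genes were higher without overlap). The median of 0.35 was 0.19 after quantile scaling, 0.18 with normexp and 0.19 in the authors' deposited table, with 15 genes positive in each. On slide 3 alone (1 rich array) it was 0.10. ICAM1, an adhesion molecule that NF-kB induces, ran from 0.11 to 0.61 (median 0.28) in the rich and from −0.79 to −0.36 (median −0.52) in the poor arrays. IL1RN, the interleukin 1 receptor antagonist, differed by 0.75, the adaptor MYD88 by 0.66 and the NF-kB subunit RELA by 0.35. IL1B itself differed by 0.83 and IL18 by 1.20 with overlap, whereas NFKB1, RELB, TNF and TNFAIP3 lay between −0.05 and −0.01 and IL6 at −0.47.

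Markers of other cells differed as well. They are given beside 46.9% of all genes with positive differences and 2.05% higher without overlap. Of 11 monocyte markers (14 listed) 9 were positive (median 0.56) with 0 free of overlap, led by the haemoglobin scavenger receptor CD163 (2.25-fold), the proteoglycan VCAN (2.14-fold) and the lipopolysaccharide receptor CD14 (1.89-fold), while the fractalkine receptor CX3CR1 was at a ratio of 0.997. Their summed signal, in units of the array's 75th percentile, was 137 to 264 in the rich and 89.3 to 163 in the poor arrays. All 13 platelet markers were positive (median 0.28; sums 36.9 to 61.1 against 20.4 to 46.7), with SELP, P-selectin, at 1.11 and F13A1 at 1.07. On slide 1 alone (1 rich array) their median was −0.17. Of 10 erythroid markers 8 were positive (median 0.42), and their sums of 84.6 to 914 and 69.2 to 327 overlapped widely. The 6 eosinophil and basophil markers were positive (median 0.32), and ALOX5AP (0.90), which neutrophils express as well, did not overlap. The part of these cells in the differences above was not tested.

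Lymphocyte markers were lower or near the median of all genes, 46.9% of which had positive differences. All 15 B cell markers had negative differences (median −0.44; summed signal 21.5 to 54.3 in the rich and 32.6 to 64.5 in the poor arrays), from PAX5 (−0.94), the factor that fixes B cell identity, to CD72 (−0.06), and none was free of overlap. Of 20 T cell markers 18 were negative (median −0.21; sums 196 to 323 against 242 to 358), led by LEF1 (−0.54), TCF7 (−0.43) and CCR7 (−0.43) of naive cells, while CD4 was at 0.01. The T cell median was −0.13 with another array in place of progressive 16, and 0.06 with 12 genes positive on slide 4 alone. The 16 natural killer and cytotoxic markers divided into 9 positive and 7 negative (median 0.01, but −0.02 with quantile scaling), from NCR1 (0.79) to GZMA (−0.74), with sums of 180 to 471 against 156 to 373. Dendritic cell markers were positive in 3 of 8 (median −0.17; sums 5.69 to 7.93 against 7.60 to 11.7). The MHC class II group was positive in 6 of 13 (median −0.02, sums 598 to 826 against 614 to 859). As listed, this group also held equine class I genes, EQMHCC1 among them.

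The genes lower in the rich arrays without overlap were led by BTLA, MFSD6, HELLS, HMGN1 and SMC4. SMC4, a subunit of condensin, ran from 0.58 to 1.20 (median 0.85) in the rich and from 1.39 to 1.82 (median 1.47) in the poor arrays, a ratio of 0.631. HMGN1, a nucleosome-binding protein, ran from 1.14 to 1.71 against 1.87 to 2.25, a ratio of 0.611. BTLA, an inhibitory receptor of lymphocytes, had the lowest ratio (0.556; −3.50 to −2.71 against −2.51 to −1.87). HELLS, a chromatin remodeller of dividing cells, had a ratio of 0.568, MFSD6 of 0.566, PDE7A of 0.648 and IL23A, a chain of interleukin 23, of 0.663. The probes of ERI2, SNAPC1, NMD3, ESF1 and GTPBP8 gave ratios of 0.632 to 0.662. Of 26 listed cell cycle genes 24 had negative differences, with a median of −0.58 and 0 free of overlap. Among all genes 46.9% of differences were positive and 0.618% of genes were lower without overlap. BUB1B and BUB1, of the spindle checkpoint, and CDC6, which licenses replication origins, had the largest, −0.80, −0.78 and −0.79. The poor array progressive 2 was the highest of its set for BUB1, CDC6 and MCM3. Cytosolic ribosomal protein genes were negative in 64 of 67 with a small median (−0.13). With another array in place of progressive 16 it was −0.036 with 16 genes positive. With the score without ALPL it was −0.014 with 26 positive, and 32 of 67 were positive among brutal arrays alone. Respiratory chain and ATP synthase genes, a list in which ATP5D and ATP5F1D are names of the same gene, were negative in 52 of 74 (median −0.05). Quantile scaling left 4 of 74 positive (median −0.16) and scaling on the detected probes 5 (median −0.12), whereas 65 were positive among brutal arrays alone (median 0.12) and 43 with the score without ALPL (median 0.04). With another array in place of progressive 16 the median was −0.02 with 32 positive. The ribosomal median thus stayed negative in these settings but came near 0, and on slide 4 alone it was 0.007 with 35 genes positive. The respiratory chain median changed sign among its settings.

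**Figure D2:**
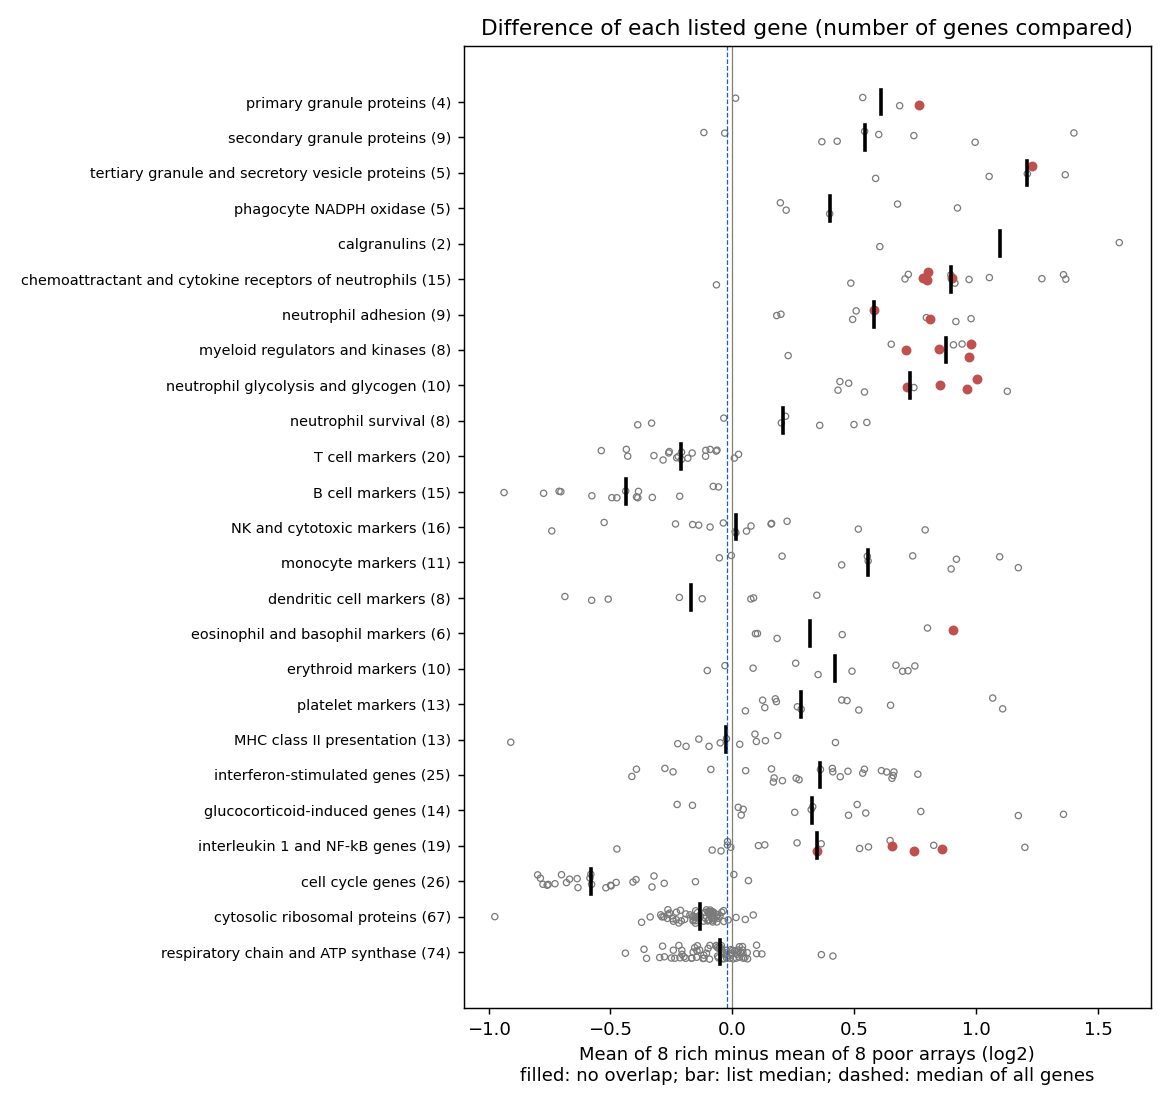
Difference of the means, rich minus poor (log2), for each gene of 25 lists, with the number of genes compared in brackets. Filled points are genes without overlap, black bars list medians and the dashed line the median of all genes (−0.02). Receptor, myeloid and glycolysis lists lie to the right, with medians of 0.90, 0.88 and 0.73, and B cell and cell cycle lists to the left, with medians of −0.44 and −0.58.

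Interferon-stimulated and glucocorticoid-induced genes had positive medians without any gene free of overlap. For interferon genes 20 of 25 were positive (median 0.36), with the viral RNA sensor DDX58 at 0.76, IFIT5 and the conjugating enzyme UBE2L6 at 0.66 each, and OASL at 0.05 (−0.12 with quantile scaling). On slide 3 alone (1 rich array) the median was −0.31. With the score without LTF it was 0.06 with 16 positive. It was 0.53 among brutal arrays alone and 0.13 among progressive arrays alone. For glucocorticoid-induced genes 12 of 14 were positive (median 0.33). Quantile scaling left 10 positive and scaling on the detected probes 9. Among brutal arrays alone the median was 0.13 with 8 positive, and among progressive arrays 0.65 with 14. In the main comparison CD163, IL1R2 and the phosphatase DUSP1 (0.77) were foremost. CXCR4 was at 0.02 and FKBP5, which binds the receptor's chaperone complex, at −0.16. Its median level was 2.99 in the rich and 3.32 in the poor arrays, and the highest of all 16, 4.87, was progressive 16.

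The lists were also read within each weaning type, where 5 rich and 2 poor arrays were brutal and 3 and 6 progressive. Among brutal and progressive arrays in turn, the median was 0.69 and 1.07 for receptors, 0.80 and 0.89 for myeloid regulators, 0.66 and 0.78 for glycolysis and 1.11 and 1.13 for tertiary granules. For the NADPH oxidase it was 0.74 and 0.20, for primary granules 0.69 and 0.24, for monocyte markers 0.91 and 0.39, for B cell markers −0.18 and −0.74 and for cell cycle genes −0.28 and −0.78. Eosinophil and basophil markers stood at 0.89 and 0.02. Slides 1, 3 and 4 held 1, 1 and 3 rich and 3, 3 and 2 poor arrays, so that readings on slides 1 and 3 rest on 1 rich mare each. Within these slides receptors had medians of 1.27, 0.50 and 0.80 and cell cycle genes of −0.64, −0.11 and −0.55. None of these differences between subsets was tested.

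The 16 arrays between the extremes allowed each gene to be read in mares that entered neither side. In these arrays the slope of each gene on the score was fitted with limma. The score and the genes come from the same arrays and scaling, and these arrays also took part in the ranking. No gene passed an adjusted p of 0.05 (0 of 9216; smallest adjusted p = 0.337), and 974 genes (10.6%) had an unadjusted p below 0.05, 673 with positive slopes (7.3%) and 301 with negative slopes (3.27%). With slide as a block 1591 genes had an unadjusted p below 0.05 (smallest adjusted p = 0.073), and with the score without S100A8 444 did (smallest adjusted p = 0.705). Over all genes 57.9% of slopes were positive. Among the 189 genes higher in the rich arrays 167 slopes were positive (88.4%), and among the 57 lower genes 48 were negative (84.2%, against 42.1% of all genes). An unadjusted p below 0.05 with a positive slope was found for 57 of the 189 (30.2%, against 7.3%), and with a negative slope for 5 of the 57 (8.77%, against 3.27%). Across the 9216 genes, which are not independent replicates, slope and difference had a Pearson r of 0.33 and a Spearman rho of 0.38.

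**Figure D3:**
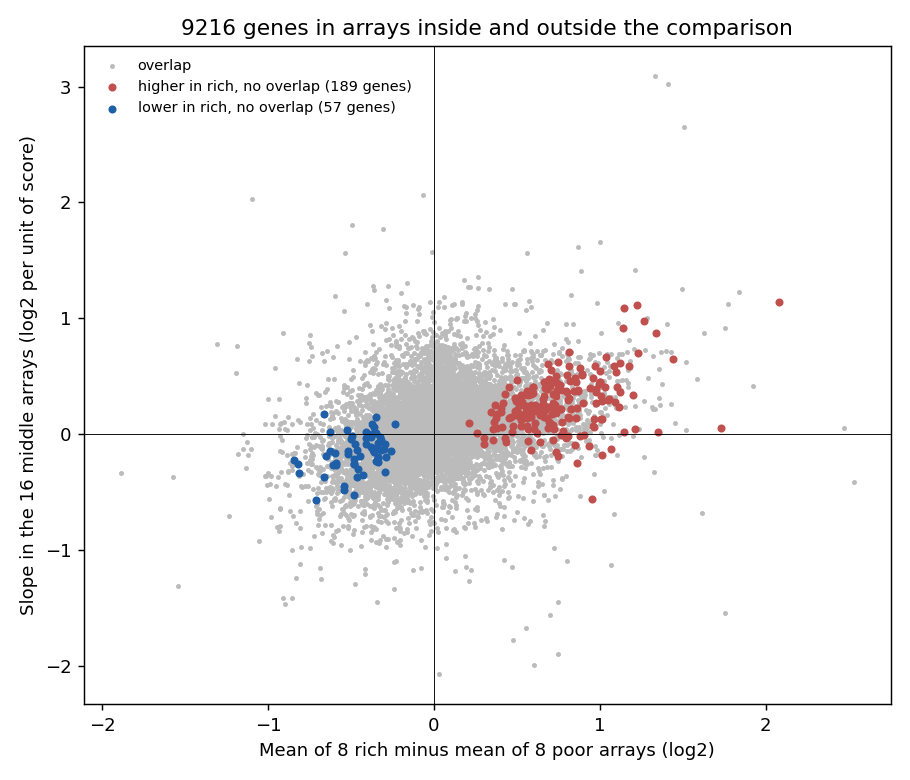
Slope on the score in the 16 middle arrays (log2 per unit of score) against the difference of the means of the 8 rich and 8 poor arrays (log2) for 9216 genes. Genes without overlap are coloured, 189 higher (red) and 57 lower (blue). Of the red points 167 lie above a slope of 0 and of the blue points 48 lie below it.

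Single genes differed in how far the middle arrays followed. SPI1 had a slope of 0.58 (SE 0.16) log2 per unit of score, FGR of 0.39 (SE 0.13), CDA of 0.87 (SE 0.29), PPP1R3B of 0.65 (SE 0.26) and RAB3D of 0.97 (SE 0.21). ARID3A, a DNA-binding protein, had 1.11 to 1.39 in the rich and 0.09 to 0.74 in the poor arrays and a slope of 0.71 (SE 0.15). CXCR2, GFI1B, DGAT2, TRIB1 and CDCP1, all free of overlap at the extremes, had slopes of 0.02 to 0.05 with SEs of 0.23 to 0.39. The smallest unadjusted p of all belonged to ZNF768 (slope 1.12, SE 0.22), ITFG3 (0.90, SE 0.19), UBTD1 (0.65, SE 0.13) and SHKBP1 (0.70, SE 0.15), and on the negative side to MSR1, a scavenger receptor of macrophages (−2.07, SE 0.50), and POLR1B, a subunit of RNA polymerase I (−0.50, SE 0.12). MSR1 differed by 0.03 between the extremes and POLR1B by −0.16.

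The lists did not all keep their side in the middle arrays. Positive slopes were seen in 13 of 15 receptor genes, 7 of 8 myeloid regulators, 9 of 10 glycolysis genes, 8 of 9 secondary granule genes, 5 of 5 oxidase genes and 5 of 5 tertiary granule genes, and negative slopes in 22 of 26 cell cycle genes. Adhesion genes were positive in 5 of 9, near the 57.9% of all genes. B cell markers, all negative at the extremes, had positive slopes in 14 of 15 (median 0.29), and ribosomal protein genes, negative in 64 of 67, had positive slopes in 60. Respiratory chain genes were positive in 63 of 74. Interferon-stimulated genes went the other way, from 20 of 25 positive differences to 4 positive slopes (median −0.30). Glucocorticoid-induced genes went from 12 of 14 to 4, and eosinophil and basophil markers from 6 of 6 to 1. Genes of a list share arrays and cells, and the change of side was not tested.

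**Figure D4:**
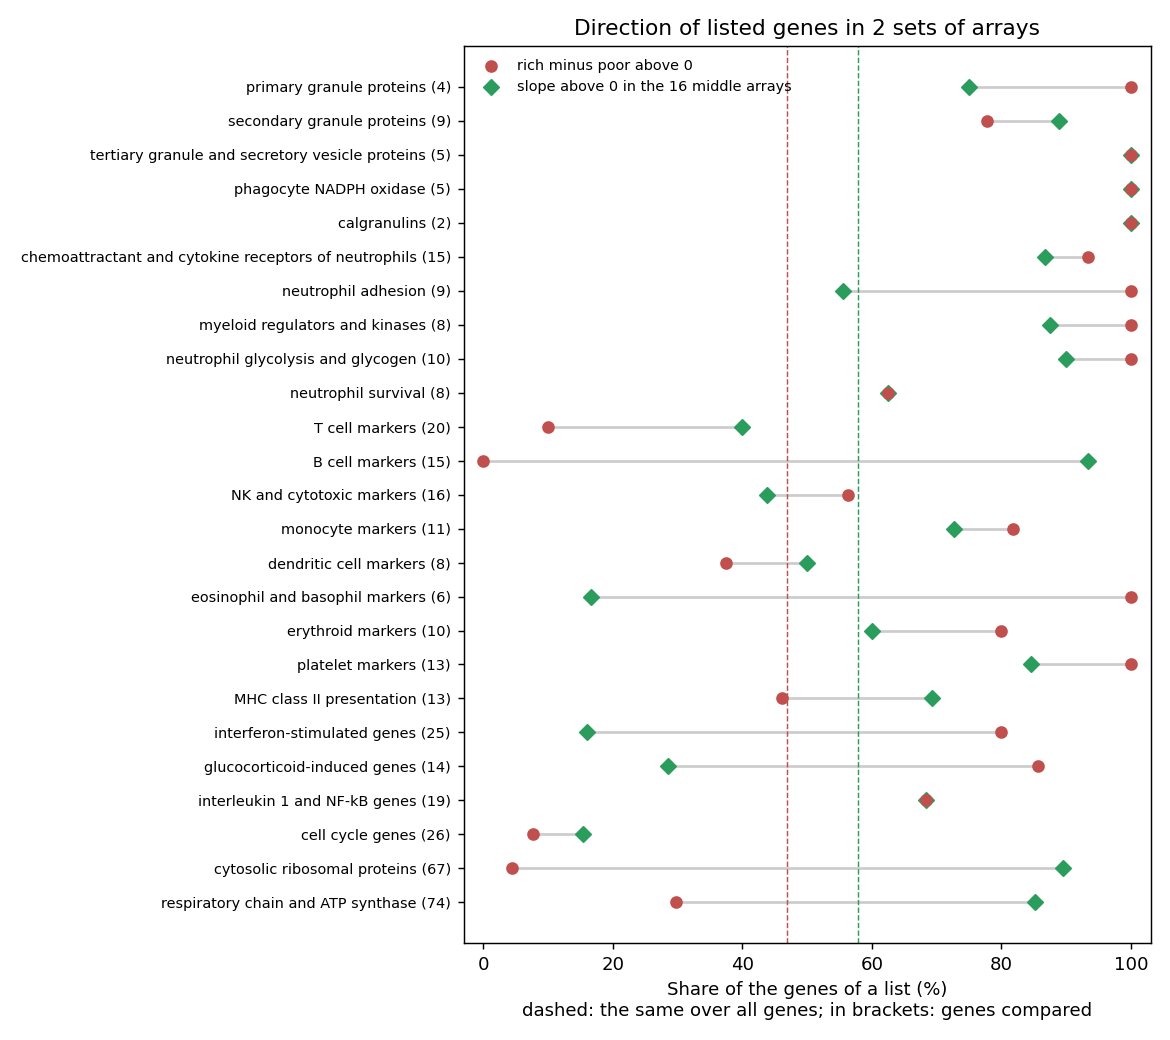
Share of the genes of each list (%) with a positive difference between the rich and poor arrays (red circles) and with a positive slope on the score in the 16 middle arrays (green diamonds), with the shares of all genes dashed (46.9% and 57.9%). Circles and diamonds lie close together for receptor, oxidase and cell cycle lists. They lie far apart for B cell, ribosomal protein, interferon, glucocorticoid, and eosinophil and basophil lists.

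Weaning type was then set beside the score over all 32 arrays with limma. Most genes of the score had been noticed for their difference between the weaning types. The score as a covariate can thus take up part of a weaning difference, and fits with it cannot exclude a difference that the score shares. Without the score in the fit, 0 of 9216 genes differed at an adjusted p of 0.05. In that fit 229 genes had an unadjusted p below 0.05, and the smallest adjusted p was 0.997. With the score as a covariate, 0 of 9216 genes differed between progressive and brutal weaning at an adjusted p of 0.05 (273 genes, 2.96%, at an unadjusted p below 0.05; smallest adjusted p = 0.999). The genes with the smallest unadjusted p were higher after progressive weaning for SAA, the acute phase protein serum amyloid A (1.01, SE 0.26), PFKFB3, a switch of glycolysis (0.70, SE 0.21), and TENC1 (0.51, SE 0.15), and lower for TSPAN2 (−0.41, SE 0.09), MVK, mevalonate kinase (−0.77, SE 0.19), and PROS1, protein S (−0.68, SE 0.19). The cathelicidin ECATH-2 stood at −1.02 (SE 0.32). The slope on the score differed between the weaning types in 0 genes (222 genes, 2.41%, at an unadjusted p below 0.05; smallest adjusted p = 1.0).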

How the data were processed

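The deposited scanner files hold 1 array each (32 mares). Per the file headers and the submitters' processing notes, the authors used Agilent Feature Extraction 10.10.1.1, whose processed signal is a background-corrected intensity. The authors also deposited a table of log2 values with array medians of 8.40, used only as an alternative; its centring was not given in the sources used here. Control spots were left out, and each signal was divided by the 75th percentile of the array's other spots and logged. Outlier spots counted in this percentile and in the score but were left out of the gene values compared. Spots were averaged per probe, and probes well above background on at least 16 arrays were kept. The brightest probe stood for a gene (9221 genes, of which 5 score). Symbols came from the files, updated by accession or gene number through a RefSeq gene table. Arrays correlated at 0.964 to 0.991 in pairs, and none was identical to another. Slopes and weaning contrasts used limma 3.58.1 (R 4.3.3; two-sided, Benjamini-Hochberg), tested on simulated data. The number of arrays limits the precision.

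The score, the 25 gene lists and the named genes were chosen with earlier results of these data known. Named were the scoring genes, the 12 largest differences without overlap in each direction, the 3 largest and the smallest of each list (apart from members not reported here), and those with the smallest p of the fits (5 a direction for the slope, 3 for weaning); genes cited as further members without overlap, or as the range of a list, were added after their values were seen. A permutation test of the score between weaning types had been planned but is not given, because 4 scoring genes had been picked for that contrast. Alternatives covered scaling, background, filters, probes, score genes, array numbers, slides and weaning type. Some members of the lists and some probe sequences are not reported here.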

Additional observations from a re-analysis of the deposited data

Results flagged for a closer look

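In each set of 8 arrays the highest or lowest array was set against its nearest neighbour for the named genes (290 sets), and 25 stood apart by Dixon's criterion, which chance meets in about 1 of 20 sets. Among the rich arrays, brutal 8 stood apart in 7 sets: it was highest for CDCP1 (−3.65, next −4.24), VPREB3 (2.34, next 0.98), RPS3A (5.22, next 4.61) and RPS27A (5.80, next 5.35), and lowest for PGD (4.36, next 4.94), LEF1 (−0.32, next 0.20) and VCAN (−0.072, next 1.22). Progressive 16 was highest for FKBP5 (4.87, next 3.20), TENC1 (7.08, next 5.87) and ALOX5AP (4.46, next 3.24) and lowest for MFSD6 (−3.97, next −3.37). Brutal 5 was highest for TCN1 (−1.54, next −2.78) and lowest for KLRD1 (−1.37, next −0.06), and brutal 10 was lowest for CTSS (5.78, next 6.14).

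Among the poor arrays, progressive 2 was highest for IRF4 (0.76, next −0.55), CDC6 (−2.08, next −3.24), BUB1 (0.70, next −0.41) and MCM3 (2.21, next 1.68) and lowest for SYK (−3.05, next −2.34). Progressive 14, the array nearest the limit of the poor set, was lowest for LEF1 (0.44, next 0.85) and CCR7 (−0.22, next 0.17) and highest for CD14 (5.65, next 4.98). Progressive 9 was highest for TCF7 (−1.48, next −2.26), progressive 15 for IL5RA (−2.25, next −3.92) and progressive 11 for HDC (−2.12, next −3.34).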

How the results depend on the processing

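No paired analysis was possible because the mares of both weaning types are different animals that the labels do not match. The counts of genes without overlap depended most on how many arrays were compared: 814 higher and 488 lower with 5 arrays a side, and 9 higher and 1 lower with 12 a side. Leaving a gene out of the score gave 118 higher without NCF1, 113 higher without ALPL, 288 higher and 140 lower without S100A8, and 92 lower without LTF. Scaling on the probes above background on all arrays gave 87 lower, and centring on slides gave 101 higher and 20 lower. Without progressive 16 another array took its place, so that the rich side kept 7 of its arrays. There were then 207 higher and 60 lower genes, 183 and 53 of them shared with the main comparison. The change is thus not that of leaving out progressive 16 alone. The slope, weaning and interaction fits had 0 genes past the threshold under every alternative run, with smallest adjusted p of the slope between 0.073 and 0.705. Of 2757 values of named genes, 2691 moved by less than 1 SD. Of the other 66, 42 moved nearer to 0, 18 further and 6 to the other sign. Of 575 list medians, 527 moved by less than 1 SD. Of the other 48, 31 moved nearer to 0, 10 further and 7 to the other sign. These 7 leave out medians that crossed 0 by a smaller move. With smaller moves counted, the NK and cytotoxic median changed side in 11 settings of 24 and the MHC class II median in 6. Why these values moved was not tested. The within-weaning and within-slide readings were chosen after seeing the data. Dim probes near background limit CORO2A, CDCP1, RAB3D and MPO.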

Other observations

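EQMHCC1, an equine MHC class I gene counted here with the class II group, had a wider spread within each set than any list-level difference. Its lowest, median and highest levels were −3.88, −3.28 and 3.37 in the rich arrays and −3.57, −0.02 and 3.19 in the poor arrays, so that both sets held arrays at either end of the scale. Haemoglobin transcripts also spread widely on both sides, HBB from 4.54 to 8.90 in the rich and from 4.05 to 7.50 in the poor arrays, and HBA2 from 4.35 to 8.57 and from 4.34 to 7.03.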
